A study of Enchytraeus crypticus with 9 samples.

Results

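The 200 transcripts described here had a higher level in cadmium-exposed than in unexposed cocoons of Enchytraeus crypticus, on every exposed array, with like mean levels at the 2 cadmium doses. E. crypticus is a small soil-dwelling oligochaete worm (a potworm) whose embryos develop inside cocoons. Members were chosen from measured values, among 43750 probes on a 1-colour Agilent array. Each member is 1 probe, and whether some members read the same transcript was not checked. Candidates were probes well above background on all 9 arrays, not among the 200 brightest in controls, and with mean levels at 5 and 16 mg Cd/kg within 0.5 of each other on the log2 scale. Of these 11857 eligible probes, the members were the 200 with the largest gap, which is the level on the lowest of the 6 cadmium arrays minus the level on the highest of the 3 control arrays. Levels are on a log2 scale, as the processed brightness relative to its array's 75th percentile: a probe as bright as that percentile has level 0, and a step of 1 is a doubling.

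Cocoons were 1 to 2 days old and were kept for 1 day in LUFA 2.2 soil, a natural standard soil, spiked with 5 mg Cd/kg or 16 mg Cd/kg, or in the same soil with no added cadmium (control). Per the series' description, both concentrations were known to affect embryonic development. Each of the 3 groups had 3 samples, each an RNA extract of 300 whole cocoons, hybridised to 1 array. A sample therefore pools embryos with whatever else a cocoon holds, and more cells of a type and more RNA per cell cannot be told apart. The labels describe the samples of a group as biological replicates.

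Cadmium is a toxic metal that binds to thiol groups of proteins and displaces essential metals such as zinc. Animal cells commonly answer it with metal-binding metallothioneins, with heat shock chaperones, and with enzymes that handle oxidative stress and glutathione. Which of the 200 transcripts encode such proteins is not reported here, because the files give each probe an assembly identifier and do not pair it with a gene name or a sequence. The lists of metal-binding, chaperone, glutathione, proteasome, ribosomal, cell cycle, cytoskeletal and cocoon genes drawn up for this series were for that reason not described, and no role can be attached to any member. Of the identifiers, 2 are printed, and other members are described by rank.

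The arrays differed in brightness and detection. Between 19614 and 29481 probes were well above background, fewer on each 5 mg array (19614 to 23287) than on each control array (26173 to 29481), and the 75th percentile of the signal ran from 38.3 to 87.3. The 9 arrays lay on 3 slides and in 5 scan sessions, a session being arrays with the same recorded scan time. Control arrays 1 and 2 were each alone in their scan session. The first 5 mg array was alone on its slide and in its scan session, and group values at 5 mg Cd/kg include it unless stated. With 3 arrays a group, precision is limited by their number throughout.

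The rule narrowed 43750 probes to 16952 that were above background on all 9 arrays, to 16752 without the 200 brightest, and to 11857 with dose means within 0.5. Among these 11857, 3070 lay higher on all 6 cadmium arrays than on all 3 controls (25.9%), and 1826 lay lower on all 6 (15.4%). The members are thus the upper end of a large set, and 2870 other eligible probes had a positive gap. At the edge of the list, the gap was 0.735 for the member ranked last and 0.734 for the next probe, which was not taken. The window between the doses kept out 885 further probes with a positive gap, of which 859 had the higher mean at the lower dose and 26 at the higher dose. A transcript below background in unexposed cocoons could not become a member.

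The gap of the members ranged from 0.73 to 1.85 with a median of 0.84, so the lowest exposed array was between 1.66-fold and 3.61-fold above the highest control array, with a median of 1.79-fold. Since these values chose the members, they are given as a description and were not tested. Only 31 members had a gap of more than 1 on the log2 scale.

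On the typical member the exposed arrays stood about a doubling or more above controls. The median level of the 200 members was 2.72, 2.14 and 2.62 on 5 mg arrays 1 to 3, and 2.30, 2.74 and 2.08 on 16 mg arrays 1 to 3, against 0.94, 1.03 and 0.97 on control arrays 1 to 3. The 6 exposed medians all lay above the 3 control medians, and the control medians lay within 0.1 of one another. The means of these medians were 2.49 ± 0.31 at 5 mg Cd/kg, 2.37 ± 0.34 at 16 mg Cd/kg and 0.98 ± 0.04 in controls (SD, n = 3 each). Without 5 mg array 1 the mean at 5 mg Cd/kg was 2.38 (n = 2). With all arrays, over all eligible probes, the means were 0.49 ± 0.23, 0.46 ± 0.01 and 0.44 ± 0.01 (SD, n = 3 each).

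**Figure D1:**
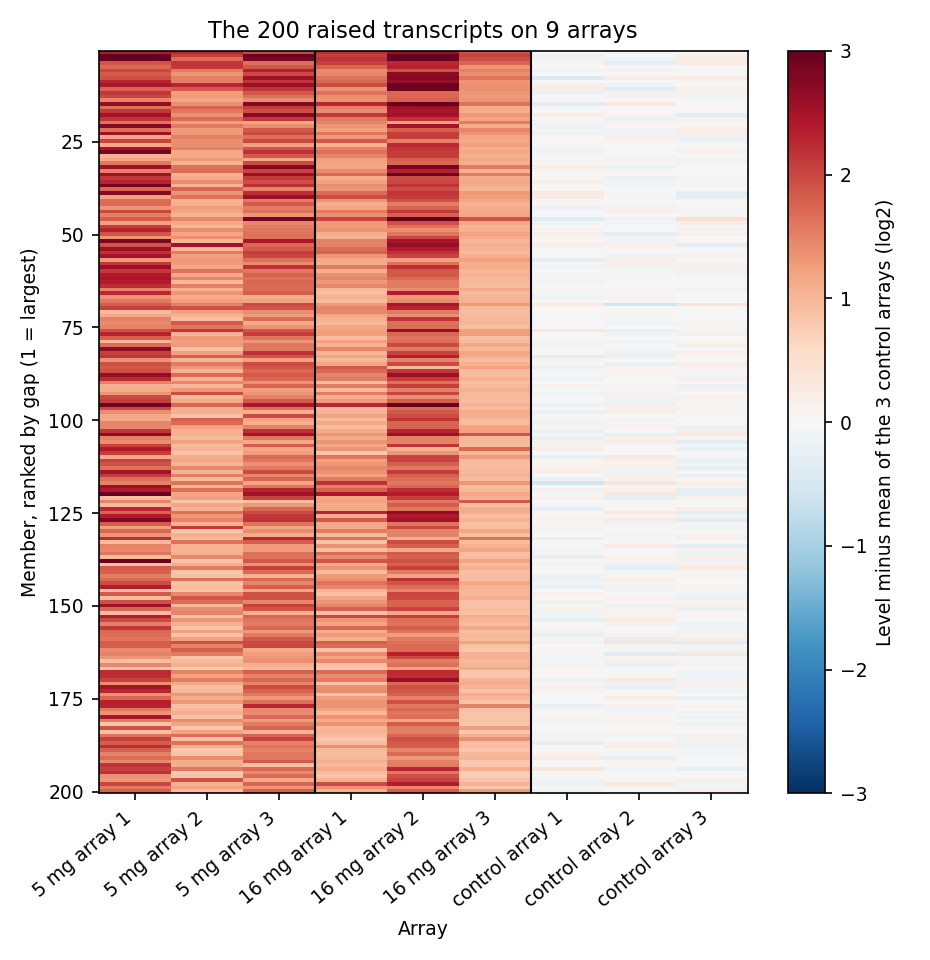
Level of each of the 200 members on each array minus the mean of its 3 control arrays (log2; colours run from -3 to 3, and larger differences take the end colour), with members ranked by gap from top to bottom and arrays in columns. All 6 cadmium columns are red from top to bottom; the columns of 5 mg array 1 and 16 mg array 2 are the darkest and that of 16 mg array 3 the palest.

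Per member, the mean difference from control at 5 mg Cd/kg ranged from 0.87 to 2.90 on the log2 scale with a median of 1.61, which is 1.83-fold to 7.45-fold with a median of 3.04-fold. At 16 mg Cd/kg it ranged from 0.98 to 2.44 with a median of 1.40, which is 1.97-fold to 5.42-fold with a median of 2.64-fold. Differences above 1, a doubling, were measured for 198 members at 5 mg and 199 at 16 mg Cd/kg, and differences above 2, a 4-fold level, for 20 and 10. Without 5 mg array 1 the differences at 5 mg Cd/kg ranged from 0.88 to 2.63, and 13 members were above 2. Both comparisons share the 3 control arrays. Over all eligible probes the median differences were 0.22 and 0.26.

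The arrays of one dose did not stand together. Relative to the control mean, the median difference of the members was 1.83 on 5 mg array 1, 1.22 on array 2 and 1.70 on array 3, and 1.31, 1.83 and 1.04 on 16 mg arrays 1 to 3. Each dose thus had arrays near the top and near the bottom of this range. For the 2870 other eligible probes above every control, the medians were 1.29, 0.71 and 1.00 on 5 mg arrays 1 to 3. On 16 mg arrays 1 to 3 they were 0.82, 1.14 and 0.64. There too, 5 mg array 1 and 16 mg array 2 stood highest and 16 mg array 3 lowest. For 108 of the 200 members (54%) the lowest exposed array was 16 mg array 3, for 48 it was 5 mg array 2 and for 31 it was 16 mg array 1. Among all eligible probes the share was 14.7% for 16 mg array 3, 30.8% for 5 mg array 2 and 8.83% for 16 mg array 1, so 5 mg array 2 was the lowest for a smaller share of members (24%) than of eligible probes. At the upper end, 16 mg array 2 was the highest exposed array for 91 members (45.5%), against 11.4% of eligible probes. The highest was 5 mg array 1 for 83 members (41.5%), against 49.7% of eligible probes. The eligible probes include lowered and unseparated ones, and the lowest exposed array sets the gap that chose the members. These shares are therefore descriptions.

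**Figure D2:**
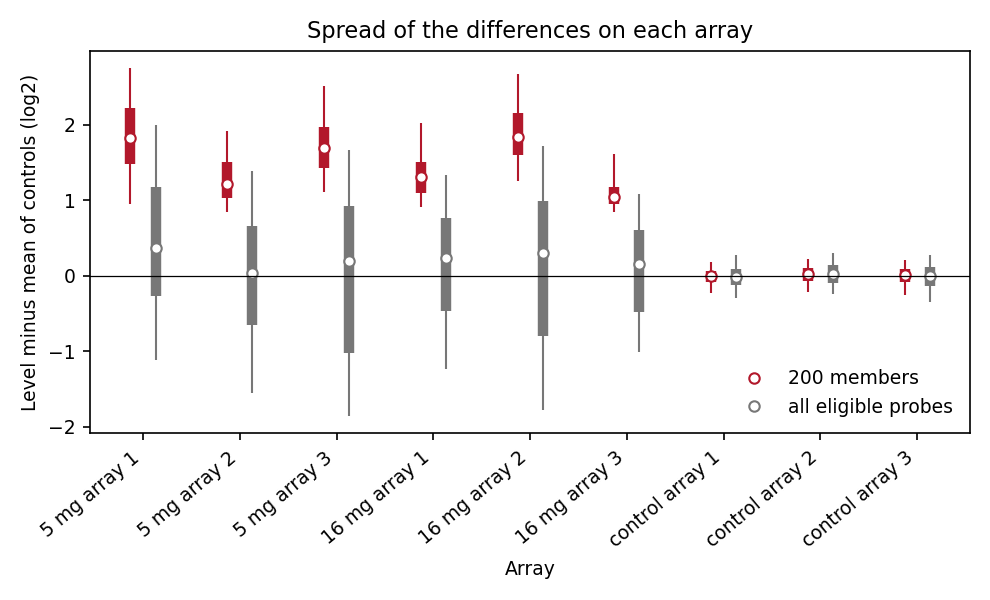
Differences of the 200 members (red) and of all eligible probes (grey) from the mean of the control arrays, on each of the 9 arrays (log2; circle, median; thick line, quartiles; thin line, 5th to 95th percentile). The members' medians lie between 1.04 and 1.83 on the exposed arrays, where the medians of the eligible probes lie between 0.04 and 0.37.

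The spread between exposed arrays was wider than that between controls. The members' median SD over 3 arrays was 0.36 at 5 mg and 0.45 at 16 mg Cd/kg, against 0.13 in controls. Among all eligible probes these medians were 0.58, 0.34 and 0.17. The members were thus less variable than the eligible probes at 5 mg Cd/kg and in controls, and more variable at 16 mg Cd/kg. In the 2870 other eligible probes above every control the medians were 0.40, 0.31 and 0.16. Those probes too were less variable than the eligible probes at 5 mg Cd/kg and in controls, but not more variable at 16 mg Cd/kg. These spreads come from the values that chose the members, since the gap is taken from the lowest and highest array, and they were not tested.

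Within the window of like dose means, which dose had the higher mean turned with the scaling of the arrays. Scaled on the 75th percentile, the mean at 5 mg Cd/kg exceeded that at 16 mg Cd/kg for 154 members (77%), and among all eligible probes for 54.2%. Among the 2870 other eligible probes above every control it did for 2132, so this balance was not particular to the members. The median difference, 5 mg minus 16 mg, was 0.20 in members, 0.16 in those 2870 probes and 0.03 in all eligible probes. The window keeps this difference within 0.5 in either direction, and in members it ran from -0.47 to 0.50. All 3 arrays at 5 mg lay above all 3 at 16 mg for 5 members, against 1.11% of eligible probes, and the opposite held for 0 members, against 0.692%. Scaled on spike-in RNA, the median difference was -0.10 in members and -0.27 in the same eligible probes, and 69 members (34.5%) and 17.5% of eligible probes had the higher mean at 5 mg. With normexp and quantile normalization it was 0.15 in members and 0.03 in eligible probes, and 150 members (75%) and 57.8% of eligible probes had the higher mean at 5 mg. The balance on the 75th percentile also moved with single arrays. Without 16 mg array 3 the median difference in members was 0.02, and 105 members (52.5%) had the higher mean at 5 mg, against 52.7% of eligible probes. Without 16 mg array 2 it was 0.44, with 192 members (96%) against 52.0% of eligible probes. Without 5 mg array 1 it was 0.06 in members and -0.11 in eligible probes, with 127 members (63.5%) against 36.6% of eligible probes. Because the window used the same means, the difference between the doses was not tested.

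The member with the largest gap, GYUW2K402HMKMM, had an identifier in the form of a single sequencing read. Its level was 1.30, 1.22 and 0.91 on 5 mg arrays 1 to 3 and 1.15, 1.53 and 0.88 on 16 mg arrays 1 to 3, against -1.06, -1.15 and -0.97 on control arrays 1 to 3. All exposed arrays stood within 0.65 of each other and far from the controls, at both doses alike. The mean level was 1.14 ± 0.20 at 5 mg, 1.19 ± 0.33 at 16 mg and -1.06 ± 0.09 in controls (SD, n = 3 each), which is 4.60-fold and 4.76-fold above control.

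The largest gap among assembled sequences (contigs) belonged to contig12944, ranked 3. Its 5 mg arrays had levels of 1.86, 0.24 and 1.41 and its 16 mg arrays 0.73, 1.61 and 0.50, against -1.51, -1.58 and -1.20 on the control arrays. Here the exposed arrays were spread over 1.62 on the log2 scale, with 5 mg array 2 and 16 mg array 3 lowest, and did not overlap the controls. The means were 1.17 ± 0.84, 0.95 ± 0.59 and -1.43 ± 0.20 (SD, n = 3 each) at 5 mg, 16 mg and in controls, 6.08-fold and 5.20-fold above control. Without 5 mg array 1 it was 4.79-fold above control at 5 mg Cd/kg.

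The member ranked 2, with a read-form name, had the largest difference of all at 5 mg Cd/kg. Its 5 mg arrays had levels of 0.28, -1.07 and 0.04 and its 16 mg arrays -1.07, 0.02 and -1.12, against -3.38, -3.13 and -2.94 on the control arrays. It was 7.45-fold above control at 5 mg and 5.37-fold at 16 mg Cd/kg. Its log2 difference at 5 mg Cd/kg was 2.90, or 2.63 without 5 mg array 1. Its signal lay between 23.2 and 87.3 brightness units on the exposed arrays and was 7.51, 8.51 and 9.73 on the control arrays, so its fold rests on dim spots.

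The 10 members with the largest gaps were dim in controls. Their control means lay between -3.18 and -0.69, below the 75th percentile, and their means were between -1.04 and 1.17 at 5 mg and between -1.14 and 1.19 at 16 mg Cd/kg. Their folds over control ran from 3.28 to 7.45 at 5 mg and from 3.05 to 5.37 at 16 mg Cd/kg. Of these 10, 8 had read-form names and 2 were contigs.

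Bright transcripts were members too. The brightest member in controls, a contig ranked 153, stood at 10.2, 8.70 and 9.56 on its 5 mg arrays and at 9.81, 9.88 and 8.90 on its 16 mg arrays, against 7.73, 7.92 and 7.78 on the control arrays. By group means it was 3.17-fold higher at 5 mg and 3.30-fold higher at 16 mg Cd/kg, and its signal in controls was 16348 to 17986 brightness units. No spot of any probe was saturated.

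The dimmest member in controls, ranked 10, stood at -0.73, -0.89 and -0.62 on its 5 mg arrays and at -1.21, 0.26 and -1.81 on its 16 mg arrays, against -3.03, -3.31 and -3.19 on the control arrays. Its 16 mg arrays were spread over more than 2 on the log2 scale (SD 1.06, n = 3), while its 5 mg arrays differed little (SD 0.14, n = 3). No exposed array overlapped the controls.

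The widest spread over the 6 exposed arrays, an SD of 0.83, belonged to a read-named member ranked 120. Its 5 mg arrays had levels of 5.75, 3.67 and 5.01 and its 16 mg arrays 4.95, 4.86 and 3.62, against 2.45, 2.81 and 2.24 on the control arrays. The narrowest, an SD of 0.13, belonged to a contig ranked 67. Its exposed arrays lay between 0.83 and 1.15 and its control arrays at -0.35, -0.08 and -0.19, so a difference of little more than a doubling (2.28-fold and 2.20-fold at 5 and 16 mg Cd/kg) was measured with almost the same value on each exposed array.

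**Figure D3:**
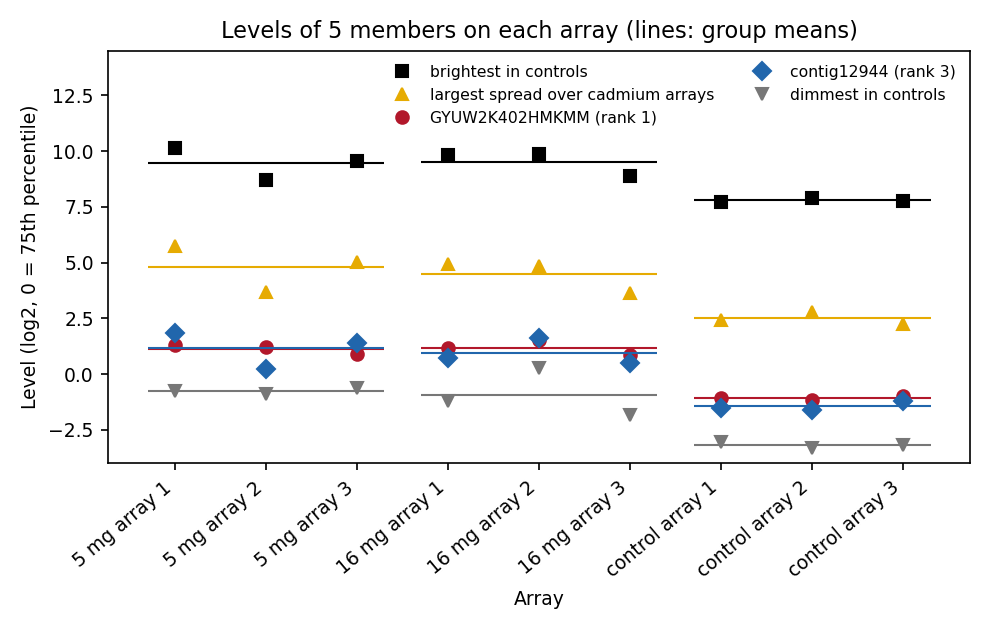
Level of 5 members on each array (log2; 0 is the 75th percentile of the array), with horizontal lines at the group means. In each of the 5 the exposed arrays lie above all control arrays, from GYUW2K402HMKMM, whose exposed arrays lie within 0.65 of each other, to the dimmest member, whose 16 mg arrays run from -1.81 to 0.26.

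In limma, a linear model with a moderated spread, fitted to all 9 arrays over 25915 tested probes, 199 of the 200 members passed an adjusted p of 0.05 as higher at 5 mg Cd/kg, where 8.94% of all tested probes did. At 16 mg Cd/kg 0 members passed, as did 0% of all tested probes, with a smallest adjusted p of 0.112 over the table and 7274 probes with an unadjusted p under 0.05. Fitted with only the 2 groups compared, 114 members passed at 5 mg Cd/kg, where 3.53% of probes were called higher, and 200 passed at 16 mg Cd/kg, where 20.3% were. Both contrasts had already chosen the members, so these counts support nothing about them. The number of called probes rested on single arrays: at 5 mg Cd/kg it was 3756 in both directions, 0 without any one control array or 5 mg array 3, 9231 and 8193 without 5 mg arrays 1 and 2, and 1351 without 16 mg array 1. At 16 mg Cd/kg it was 4565 without 5 mg array 1.

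The same members were then set out within slides. Slide 1 held 5 mg array 2, 16 mg array 1 and control arrays 1 and 3. All 200 members were higher there at both doses, with median differences of 1.24 at 5 mg and 1.31 at 16 mg Cd/kg, while 52.4% and 58.7% of eligible probes were higher. Slide 2 held 5 mg array 3, 16 mg arrays 2 and 3 and control array 2, and its medians were 1.65 and 1.43. In the one scan session that held a control array with exposed arrays, 5 mg array 2 and 16 mg array 1 stood 1.24 and 1.31 above control array 3 (medians). These are the arrays that chose the members, so the directions are fixed by the rule and the sizes are descriptions. Without 5 mg array 1, which has no control on its slide, the members' median difference at 5 mg Cd/kg was 1.47, against 1.61 with it.

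To see the pattern on an array that had no part in the choice, the rule was applied to 8 arrays at a time and the 200 probes so chosen were looked up on the array left out. The array left out was set against control arrays, or exposed arrays where a control was left out, that had made the choice. That favours high shares among the chosen probes but not among the eligible ones, so the shares are descriptions. On 5 mg array 3, 200 of 200 lay above all 3 controls, where 51.7% of eligible probes did, and on 16 mg array 2 it was 200, where 50.6% did. On 16 mg array 1 it was 199 (53.1%), on 5 mg array 1 187 (47.2%) and on 16 mg array 3 179 (49.2%). The lowest count came from 5 mg array 2, where 132 of 200 lay above all controls, against 39.4% of eligible probes. Control arrays 1 to 3, each left out in turn, lay below all 6 exposed arrays for 199, 200 and 199 of the 200, against 34.2%, 31% and 34.5% of eligible probes.

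The sizes on the array left out varied as widely. The median difference from the control mean was 1.88 on 5 mg array 1, 0.44 on 5 mg array 2 and 1.72 on 5 mg array 3, and 1.16, 1.67 and 0.81 on 16 mg arrays 1 to 3. Over all probes eligible without that array, the medians on the same arrays were 0.08, -0.12 and 0.26 for 5 mg arrays 1 to 3, and 0.27, 0.23 and 0.18 for 16 mg arrays 1 to 3. On 5 mg array 2 and 16 mg array 3 the medians were 0.44 and 0.81. The 200 members, a largely different list that these arrays helped to choose, had higher medians on them, 1.22 and 1.04. The choice of 8 arrays still used the same control arrays, or the same exposed arrays where a control was left out, so the lists are not independent of the values they are set against. Between 58 and 185 of the probes so chosen were among the 200 members, fewest without 5 mg array 2 (58) and without 16 mg array 3 (60).

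**Figure D4:**
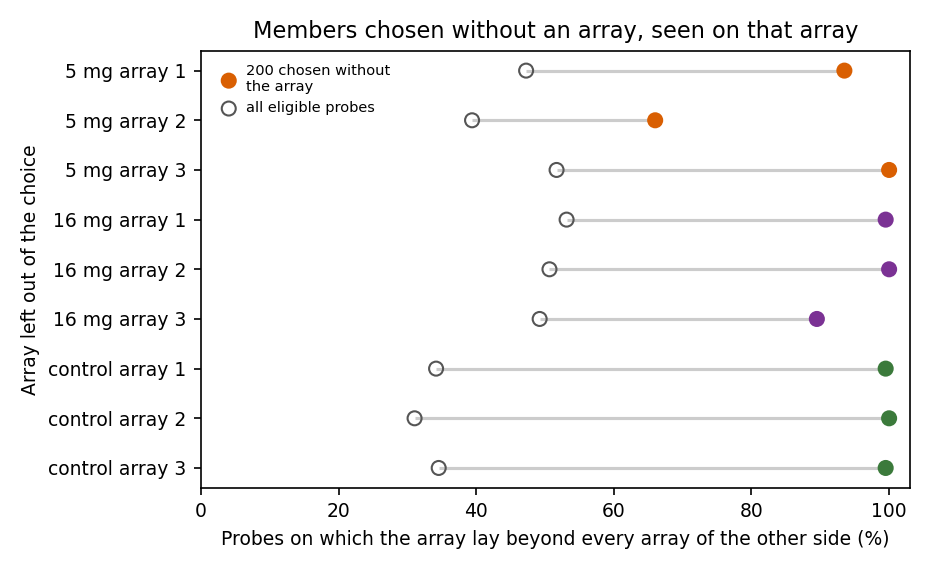
Share of the 200 probes chosen without an array on which that array lay above all controls (exposed arrays) or below all exposed arrays (control arrays), as filled points, with the same share among all eligible probes as open points. The share is 66% on 5 mg array 2, 89.5% on 16 mg array 3, 93.5% on 5 mg array 1 and 99.5% or more on the others. The arrays that each left-out array was set against had taken part in the choice.

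The size of the differences followed the choice of scaling. Scaled on spike-in RNA added to each sample, the median difference of the members was 1.05 at 5 mg and 1.14 at 16 mg Cd/kg, and 157 of 200 lay above every control, where 3.03% of the 16952 probes above background did, against 23.7% with the 75th percentile. This scaling moved the median of those 16952 probes at 5 mg Cd/kg to -0.35, against 0.21 with the 75th percentile, and at 16 mg Cd/kg to near 0, against 0.27. With another background correction (normexp, which here added 50 brightness units to each spot) and quantile normalization, the members' medians were 0.86 and 0.73. Of the 200 members, 198 lay above every control (15.8% of probes). Added units lower the folds of dim spots most, and their share in the change was not tested. For all 200 members both dose means stayed above the control mean under each of these scalings. Of the 200 probes that the rule takes under spike-in scaling 92 were members, and under normexp and quantile 126.

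One property that the rule did not use, the form of the identifier, was unevenly divided. Identifiers in the form of single sequencing reads made up 122 of the 200 members (61%) and contigs 78 (39%), whereas read-form names made up 43.9% of the eligible probes and 47.0% of all probes. The share was 52.4% among the 2870 other eligible probes above every control, and 45.3% among eligible probes that were not separated in either direction. On the opposite side, read-form names made up 23.3% of the 1826 eligible probes that lay below every control, and 27 of the 200 (13.5%) that the mirrored rule takes. The 2 prefixes of the read-form names were about equally common in members, with 62 and 60 probes, as in eligible probes, with 2641 and 2566.

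Read-named members were dimmer in controls than contig members, with median control levels of 0.54 and 1.84. The median difference at 5 mg Cd/kg was 1.67 for read-named and 1.499 for contig members, and at 16 mg Cd/kg 1.41 and 1.38. The naming class was therefore set out by control level. Among eligible probes with a control level from -2 to 0, read-form names made up 64.7% of those above every control, 29.7% of those below every control and 43.8% of all. From 0 to 2 the shares were 61.2%, 19.5% and 43.5%, from 2 to 4 they were 49.2%, 13.7% and 45.5%, and above 4 they were 31.9%, 8.16% and 39.7%. In each of these 4 classes the raised probes held more read-form names than the lowered ones, and above 4 fewer than the eligible probes as a whole. These shares were not tested.

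**Figure D5:**
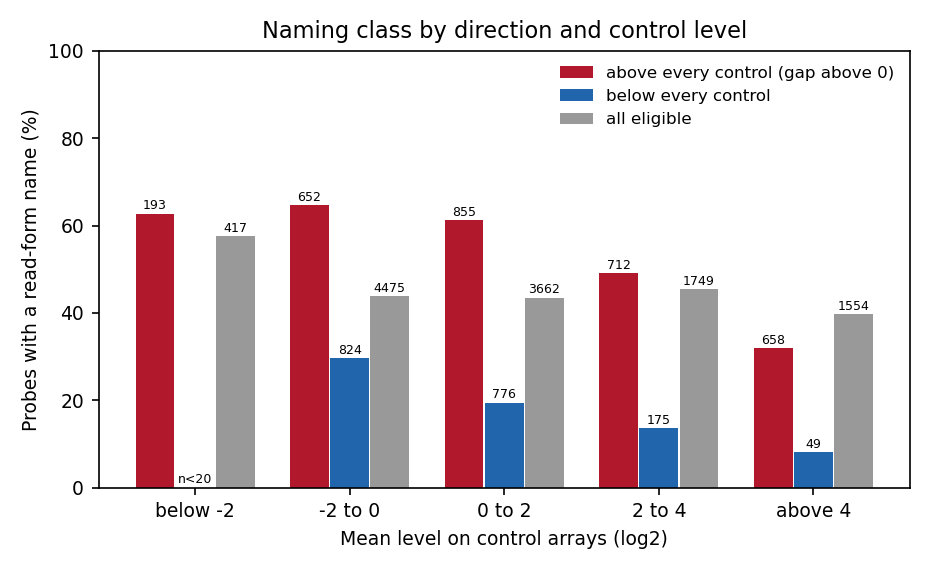
Percentage of probes with a read-form name among eligible probes that lay above every control on all 6 exposed arrays (red), below every control (blue) and among all eligible probes (grey), by mean level on the control arrays (log2); numbers above the bars are probes, and bars of fewer than 20 probes are not drawn. In the 4 classes with all 3 bars the red bar is at 64.7%, 61.2%, 49.2% and 31.9%, and the blue bar at 29.7%, 19.5%, 13.7% and 8.16%.

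The members covered nearly the whole range of control levels among the eligible probes, from which the 200 brightest had been left out. Their control levels ran from -3.18 to 7.81 with a median of 0.99, against a median of 0.43 in eligible probes. The class with control levels below -2 held 20 members, which is 4.80% of the eligible probes in it, the class from -2 to 0 held 57 (1.27%), from 0 to 2 it was 54 (1.47%), from 2 to 4 47 (2.69%) and above 4 22 (1.42%). In these 5 classes the median difference at 5 mg Cd/kg was 1.69, 1.60, 1.61, 1.61 and 1.51, and at 16 mg Cd/kg 1.48, 1.42, 1.39, 1.41 and 1.31. Across the 200 members the control level and the difference over the 6 exposed arrays correlated at r = -0.21, a description only, since both are computed from the same control arrays.

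The members' spots were spread over the array. The 4 quadrants held 44, 59, 56 and 41 members, where each held between 24.5% and 25.7% of the eligible probes. Local background around the members' spots, a measure that the rule did not use directly, was set against that around all eligible probes as a log2 ratio of medians. The ratio was 0.0014 ± 0.0094 over the exposed arrays (SD, n = 6) and 0.014 ± 0.023 over the control arrays (SD, n = 3), a difference of -0.012 that was smaller than the SD of the controls (p = 0.440 in a two-sided exact permutation test). Most arrays had a ratio of exactly 0, so many arrangements tied. The nominal smallest p of 0.0238 could therefore not be reached, and nothing is concluded from the test. None of the members' spots was marked as non-uniform or outlying on any array.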

How the data were processed

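Cocoon RNA (500 ng) was amplified, labelled with Cy3 and hybridised to 1-colour Agilent arrays with spike-in RNA, per the labels' protocols. Intensity was deposited as the gProcessedSignal of Feature Extraction (Agilent, version 10.7.3.1), per the file headers: background-subtracted, linear and not scaled between arrays. The deposited flag columns, other than intensities, mark spots above background, non-uniform, outlying or saturated. The series table holds the same signals, within 0.497%. Its column medians were 7.23, 7.41 and 11.3 (5 mg arrays), 7.99, 12.0 and 13.8 (16 mg) and 15.6, 15.0 and 13.6 (control). Its scale is linear and it is not centred.

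Levels were log2 signal minus each array's 75th percentile, over 43750 probes without 1417 control features. Tests of all probes used limma 3.58.1 (R 4.3.3), two-sided, Benjamini-Hochberg at 0.05, on 25915 probes above background on all 3 arrays of a group, without 63 marked spots. The limma fit and the rule were tested on simulated data. Spike-in scaling used 8 of 10 spike-in kinds, those above background on every spot. Normexp (offset 50) used the spot median, since the files have no spot mean. Of 43750 identifiers, 23177 are contigs and 20573 have read-form names. Named by identifier were the member with the largest gap in each class, and others by rank or role. Members, lists and tests were chosen with earlier results of these data known. Python 3.11.15 made the summaries, with pandas 2.3.3.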

Additional observations from a re-analysis of the deposited data

How the results depend on the processing

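The count of probes called at 5 mg Cd/kg (limma) was 3756. It became 2393 with normexp (offset 50) and quantile, 6072 with spike-in scaling, 8404 with the slide as a block, 0 with no filter on dim probes and 1354 with only the 2 groups compared. Leaving out each array gave 0 to 9231. At 16 mg Cd/kg the count was 0, and it became 8 with the slide as a block and 11111 with only the 2 groups compared; leaving out each array gave 0 to 4565. Of the 3756, 2317 (61.7%) were higher, against 212 of 6072 with spike-in scaling and 3034 of 8404 with the slide block. The cause was not tested.

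The labels number the arrays of each group 1 to 3. Deviations of same-numbered arrays correlated at -0.08 to 0.35, above 0.1 in 2 of 9 pairs, so the numbers were not taken to pair the arrays. The replicate block gave 1899 called probes at 5 mg and 0 at 16 mg Cd/kg and left the members' medians at 1.61 and 1.40.

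The members' median difference of 1.61 at 5 mg Cd/kg became 0.86 with normexp and quantile, 1.05 with spike-in scaling, and 1.24 within slide 1 and within scan session 1 (the within-slide and within-session values were added after the data were seen). That of 1.40 at 16 mg Cd/kg became 0.73 with normexp and quantile. Leaving out each array gave 1.47 to 1.78 and 1.17 to 1.58. The members' median of 5 mg minus 16 mg, 0.20, became -0.10 with spike-in scaling, a reversal, and 0.02 to 0.44 over the exposed arrays left out (all added after the data were seen). The 200 members above every control were 157 with spike-in scaling and 198 with normexp and quantile, and 200 without each array, which the rule fixes. The local background difference of -0.012 became 0.00138 without control array 3, with an exact permutation p of 1.0, was -0.0189 to 0.00138 over the arrays left out, and was -0.0073 with the mean local background. A window of 0.25 or 1.0 between the doses kept 115 or 152 of the members, and keeping the 200 brightest probes kept 200. Dim spots limit the members with low control levels, where a small change in signal carries a large fold. The members' median differences below a control level of -2 were 1.69 and 1.48 at 5 and 16 mg Cd/kg. From -2 to 0 they were 1.60 and 1.42.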
